A study of Mus musculus with 20 samples.

Results

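Control ears of 2 mouse skin disease models, which the labels call ACD and AD without spelling the names out, were compared by RNA sequencing. The libraries were chosen by their labels alone: 5 ACD control libraries (numbered 1, 3, 4, 5 and 6) and 5 AD control libraries (numbered 1, 2, 4, 5 and 6), which are 10 of the 20 libraries of the study. All came from ear tissue of C57BL/6 mice described as healthy at the start, of 6 to 7 weeks and 16 to 18 g. The sample labels call both control groups untreated and the study's design text calls them vehicle controls, and ears were taken 4 h after the injection, which was made into the abdominal cavity. The other 10 libraries came from mice injected with SB415286, an inhibitor of the kinase GSK3, at 2 mg/kg for ACD and 0.7 mg/kg for AD, as the design text and sample labels place the doses. The labels used here do not say what was put on the skin in either model, what sex the mice were, or that each library is 1 mouse, so the p-values measure the spread between these libraries. Each model was deposited as a table of its own, so that model and table are 1 factor and a difference of model cannot be told apart from a difference of batch or of counting between the tables.

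Inflamed skin is read here through a few well-known programmes. Chemokines that bind the receptor CXCR2 draw neutrophils into tissue, interferon-gamma from T and NK cells induces guanylate-binding proteins and antigen presentation, and the type 2 cytokines IL-4 and IL-13 and the epithelial cytokine TSLP mark allergic inflammation. Keratinocytes that leave the basal layer switch from Krt5 and Krt14 to Krt1 and Krt10 and then build a cornified envelope of loricrin, filaggrin and related proteins. Active vitamin D, bound to its receptor, induces the enzyme CYP24A1, which degrades it.

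Library totals were 18.8 to 20.6 M expected counts (M for mega). Genes found in both tables were scaled together, and 15263 of 18835 had enough counts to be tested with edgeR's quasi-likelihood test. Values are given as counts per M counts (CPM) in the order of library numbers stated above, and log2 fold changes are ACD minus AD with their SE. A gene was called at an adjusted p under 0.05. This called 9378 genes (61.4%), of which 4662 (30.5%) were higher and 4716 (30.9%) lower in ACD, and the median over all tested genes was -0.02. With a log2 fold change of at least 1 in size as well, 1422 genes (9.32%) were higher and 1540 (10.1%) lower. The values of the groups did not overlap for 7303 genes (47.8%). With such a background, a called gene or a list with many called members is not unusual in itself, and size, direction and the values per library carry more than the call. The first principal component of log2 CPM held 72.4% of the variance and separated the groups. AD control 6 was the library least like its group (median correlation of log2 CPM 0.963, against 0.974 to 0.978 in the other AD controls and 0.985 to 0.988 in ACD). The keratin of basal keratinocytes, Krt14, stood at 6273 to 8625 CPM in AD and 6055 to 7667 CPM in ACD, so that keratinocyte RNA was present in every library. In bulk tissue, fewer cells of a type and less RNA per cell cannot be told apart.

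The ACD and AD tables did not count reads in the same way. In the AD controls 34.3% to 35.5% of the genes found in both tables had a count that was not whole, against 58.4% to 65.3% in the ACD controls. The gene length implied by count, total and FPKM differed by more than 1.25 times between the tables for 148 of 14904 genes (0.993%), among them the list members Cd226, Has1, Il1rl1, Tigit and Tyr.

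Before the values, the DNA just upstream of 4 genes that stood far apart between the models is shown, since 3 of them are neighbouring chemokine genes with the same short sequence at a similar place. Each is the 250 bases before the start of the gene (RefSeq, GRCm38.p6, plus strand, 5′ to 3′). Capitals mark matches to GGGANTTTCC, a form of the motif bound by the inflammatory factor NF-kB, searched on both strands. The 4 genes were chosen after their values were seen.
Cxcl1, chr5:90890995-90891244: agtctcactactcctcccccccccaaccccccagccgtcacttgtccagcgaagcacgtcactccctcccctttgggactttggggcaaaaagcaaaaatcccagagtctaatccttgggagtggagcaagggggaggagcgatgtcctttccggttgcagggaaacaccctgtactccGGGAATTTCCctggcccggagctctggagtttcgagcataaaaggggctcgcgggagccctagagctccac
Cxcl2, chr5:90903649-90903898: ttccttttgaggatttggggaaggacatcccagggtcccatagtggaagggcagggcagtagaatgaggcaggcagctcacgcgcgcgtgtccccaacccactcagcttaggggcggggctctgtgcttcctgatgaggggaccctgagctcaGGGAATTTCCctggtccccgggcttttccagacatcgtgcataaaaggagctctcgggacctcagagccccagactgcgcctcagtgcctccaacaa
Cxcl3, chr5:90785851-90786100: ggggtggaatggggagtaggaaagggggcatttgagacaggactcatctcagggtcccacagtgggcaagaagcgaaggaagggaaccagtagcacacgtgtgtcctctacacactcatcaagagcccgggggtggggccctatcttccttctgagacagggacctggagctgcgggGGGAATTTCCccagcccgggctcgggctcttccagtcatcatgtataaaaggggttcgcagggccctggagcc
Il6, chr5:30012864-30013113: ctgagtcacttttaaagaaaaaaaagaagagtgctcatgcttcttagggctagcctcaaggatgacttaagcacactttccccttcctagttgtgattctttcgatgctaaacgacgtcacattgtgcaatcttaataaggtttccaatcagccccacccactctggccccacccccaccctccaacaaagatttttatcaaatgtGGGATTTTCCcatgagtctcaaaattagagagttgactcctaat
The match begins 71 bases before the start in Cxcl1, 97 in Cxcl2, 73 in Cxcl3 and 44 in Il6, and the letters are GGGAATTTCC in the chemokine genes and GGGATTTTCC in Il6. Of all 32851 windows of this length in the reference table, 117 (0.356%) hold a match, and of the 12078 tested genes with a window, 63 (0.522%) do. Among the neutrophil chemokine genes with a window it was 3 of 9 (Cxcl1, Cxcl2 and Cxcl3), and among the IL-1 and TNF genes 3 of 21 (Il6, Nfkb2 and Nfkbia). Among interferon-gamma genes it was 1 of 19 (Gbp5). A match is a description of the letters and not of a bound site.

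Neutrophil chemokines and neutrophil genes were far higher in the ACD controls. All 11 tested members of the neutrophil chemokine list were higher (median log2 fold change 3.81), beside 30.5% of all tested genes and a median of -0.02. Cxcl1, a CXCR2 ligand, was 4.32, 11.1, 5.07, 3.02 and 6.81 CPM in the AD controls and 216, 204, 317, 177 and 329 CPM in the ACD controls. Every ACD library lay above every AD library (log2 fold change 5.35 ± 0.35 (SE), adjusted p = 1.54e-06). Cxcl5, another CXCR2 ligand made by epithelium, was 13.1, 53.9, 13.2, 5.44 and 13.9 CPM in the AD controls and 586, 484, 596, 509.5 and 689 CPM in the ACD controls. AD control 2 was well above the other AD controls and still far below every ACD library (log2 fold change 4.84 ± 0.55 (SE), adjusted p = 2.89e-05). Cxcl2, chosen after its values were seen, and Cxcl3, both neighbours of Cxcl1, differed by 3.81 ± 0.41 (adjusted p = 2.27e-05) and 3.81 ± 0.31 (adjusted p = 4.02e-06) on the log2 scale. Csf3, which encodes the neutrophil growth factor G-CSF, was 0.913, 2.21, 3.60, 0.891 and 3.96 CPM in the AD controls and 36.5, 41.4, 52.3, 49.0 and 68.4 CPM in the ACD controls. The groups did not overlap (log2 fold change 4.41 ± 0.38 (SE), adjusted p = 5.66e-06). AD control 4 held more Cxcl2 than the other AD controls, at 123 CPM against 36.9 to 45.3 CPM. The receptor Cxcr2 was 24.2 to 57.1 CPM in AD and 188 to 359 CPM in ACD (log2 fold change 2.51 ± 0.25 (SE), adjusted p = 1.33e-05).

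Of 16 tested neutrophil markers, which share Cxcr2 and Csf3r with the chemokine list, 15 were higher in ACD and 1 was lower, with a median of 3.71. Ly6g, the surface marker of mouse neutrophils, was 0.144, 0.226, 0.244, 0 and 0.0483 CPM in the AD controls and 7.49, 16.7, 9.14, 13.4 and 17.9 CPM in the ACD controls. AD was at or near 0 in all 5 libraries, and ACD was never below 7.49 CPM (log2 fold change 6.53 ± 0.46 (SE), adjusted p = 2.29e-06). Ngp, a granule protein of neutrophils, was 0.0961, 0.226, 0.584, 0.0495 and 0.290 CPM in the AD controls and 6.26, 21.6, 8.86, 18.1 and 18.2 CPM in the ACD controls (log2 fold change 5.84 ± 0.52 (SE), adjusted p = 7.49e-06). Retnlg and the receptor Trem1 differed by 4.95 ± 0.36 (adjusted p = 2.68e-06) and 4.87 ± 0.34 (adjusted p = 1.98e-06). S100a9 and S100a8, the subunits of calprotectin, which keratinocytes also make under stress, were 41.8 to 245 CPM in AD and 1325 to 2599 CPM in ACD and 28.6 to 148 CPM in AD and 721 to 1392 CPM in ACD in that order. Among the stefin A genes, close copies between which reads are hard to divide, Stfa2l1 was higher (4.69 ± 0.35) and Stfa2 lower (-1.47 ± 0.22; chosen after its values were seen). Red cell genes were higher too: 5 of 6 tested were higher in ACD (median 3.05), and the summed level of the list was 60.1 to 502 CPM in AD and 503 to 6122 CPM in ACD. Hbb-bs, a globin gene with a close copy, was 188, 46.8, 96.9, 76.9 and 18.7 CPM in the AD controls and 199, 1272, 538, 2706 and 671 CPM in the ACD controls (log2 fold change 3.66 ± 0.75 (SE), adjusted p = 0.00155). ACD control 1 was lowest in ACD for Hbb-bs, Ly6g, Ngp, Retnlg and S100a9. The highest ACD library was control 5 for Hbb-bs, control 6 for Ly6g and Retnlg, and control 3 for Ngp and S100a9. The level of Retnlg in ACD was 105, 235, 119.8, 209 and 242 CPM and that of S100a9 was 1325, 2599, 1834, 2361 and 2392 CPM. The part of blood in the neutrophil result was not tested.

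The 10 largest rises among genes of at least 1 CPM on average were led by these neutrophil genes. Besides Ly6g, Nos2, Ngp, Cxcl1, Retnlg, Trem1, Cxcl5 and Stfa2l1 they held Bpifb1, a secreted protein of the lipid-binding BPI family, and Mrgpra2b, a receptor of neutrophils. Bpifb1 was 0.240, 0.0903, 0.0974, 0.0990 and 0 CPM in the AD controls and 5.08, 1.80, 2.84, 3.64 and 2.53 CPM in the ACD controls. It was near 0 in AD and low but present in each ACD library (log2 fold change 4.83 ± 0.48 (SE), adjusted p = 1.22e-05). Mrgpra2b was 0 to 1.53 CPM in AD and 9.31 to 21.5 CPM in ACD (log2 fold change 4.62 ± 0.58 (SE), adjusted p = 5.69e-05).

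**Figure D1:**
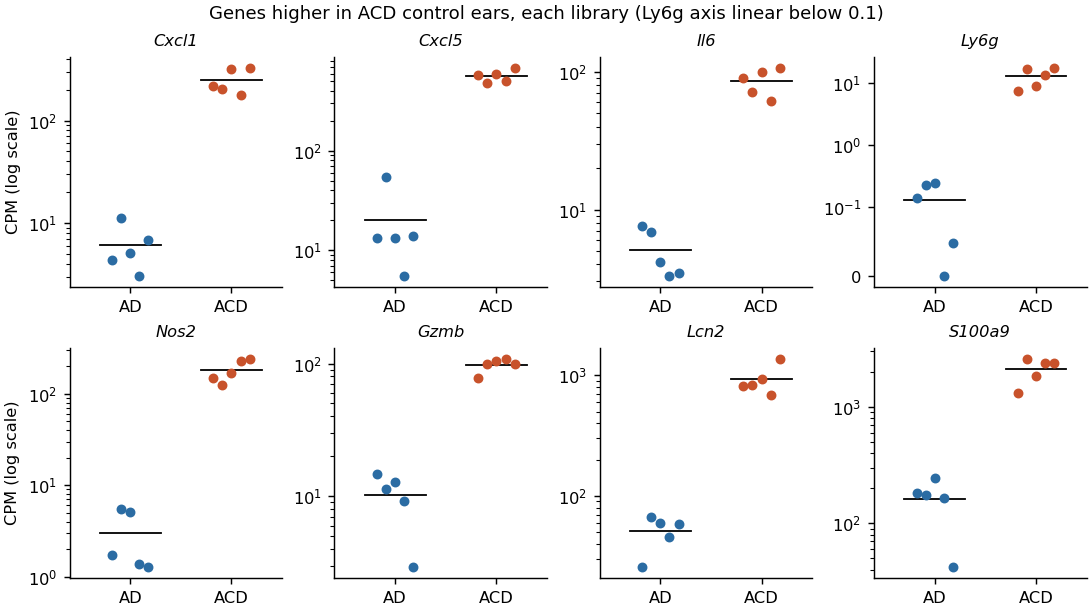
Counts per M counts (CPM, log axis, linear below 0.1 for Ly6g) of 8 genes in each control library; each point is a library, the line is the mean of 5, AD in blue and ACD in orange. In all 8 panels every ACD point lies above every AD point, from Gzmb (log2 fold change 3.26 ± 0.32) to Ly6g (6.53 ± 0.46).

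Inflammatory cytokines of the IL-1 and TNF programme were mostly higher, with 20 of 25 tested members higher and 1 lower (median 1.46). Il6 was 7.59, 6.86, 4.14, 3.27 and 3.43 CPM in the AD controls and 90.0, 70.9, 100.0, 61.6 and 108 CPM in the ACD controls. The ACD range began at 61.6 CPM, above the AD maximum of 7.59 (log2 fold change 4.08 ± 0.27 (SE), adjusted p = 1.54e-06). Il1b, named after its values were seen, was 62.5, 70.2, 67.3, 17.4 and 11.1 CPM in the AD controls and 691, 816, 936, 1196 and 1072 CPM in the ACD controls. AD controls 5 and 6 were the lowest, and the groups did not overlap (log2 fold change 4.37 ± 0.51 (SE), adjusted p = 3.67e-05). Casp4, the sensor of the non-canonical inflammasome, Tnfaip3, a brake on NF-kB, and the adhesion molecule Icam1 differed by 2.36 ± 0.14, 1.67 ± 0.11 and 1.46 ± 0.10 (adjusted p = 9.8e-07, 1.45e-06 and 1.54e-06). Il18 was the member that was lower, at 45.0 to 87.8 CPM in AD and 27.7 to 41.7 CPM in ACD (log2 fold change -1.01 ± 0.17 (SE), adjusted p = 0.000358; chosen after its values were seen).

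The IL-17 and IL-36 list was split. Of 12 tested members 8 were higher and 3 lower, and of the 9 that passed the FPKM filter 5 were higher and 3 lower. Lcn2, an iron-binding antimicrobial protein, was 25.5, 67.2, 59.7, 45.6 and 58.0 CPM in the AD controls and 819, 833, 936, 688 and 1378 CPM in the ACD controls (log2 fold change 4.18 ± 0.29 (SE), adjusted p = 1.88e-06). The receptor Il17ra (1.47 ± 0.13) and the NF-kB cofactor Nfkbiz (1.27 ± 0.13) were also higher, while Il1f8, another name of the IL-36 beta gene Il36b, was lower at 38.9 to 91.6 CPM in AD and 17.8 to 26.2 CPM in ACD (log2 fold change -1.59 ± 0.20 (SE), adjusted p = 6.8e-05). Il17a, Il17f and Il23r had too few counts to be tested. Among antimicrobial and alarm peptides 12 of 18 were higher and 4 lower. Saa3, an acute-phase protein, was 17.1 to 53.0 CPM in AD and 274 to 465 CPM in ACD (log2 fold change 3.52 ± 0.30 (SE), adjusted p = 5.52e-06), Pglyrp1, a peptidoglycan-binding protein of neutrophil granules, differed by 2.80 ± 0.22, and the beta-defensin Defb3 (chosen after its values were seen) by 2.87 ± 0.38.

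The interferon-gamma list was higher throughout: all 27 tested members were called, with a median of 1.80. Nos2, the inducible nitric oxide synthase, was 1.73, 5.42, 5.07, 1.39 and 1.26 CPM in the AD controls and 148, 126, 169.9, 230.2 and 242 CPM in the ACD controls. Even the lowest ACD library lay far above the highest AD library (log2 fold change 5.94 ± 0.44 (SE), adjusted p = 2.65e-06). Gbp4 and Gbp8, guanylate-binding proteins from a family of close copies, and Cd274, which encodes the checkpoint ligand PD-L1, differed by 2.58 ± 0.20, 2.68 ± 0.22 and 2.52 ± 0.21. Ifng itself, named after its values were seen, was 1.01, 1.53, 1.22, 0.396 and 0.0967 CPM in the AD controls and 4.56, 3.09, 12.8, 5.36 and 7.03 CPM in the ACD controls. Levels were low, the groups did not overlap, and AD control 6 had the least (log2 fold change 2.93 ± 0.55 (SE), adjusted p = 0.000843). The related type I interferon list held 10 members of 20 tested that were higher, 1 that was lower and 9 that did not pass (median 0.68). Oasl1 (2.34 ± 0.22), Zbp1 (2.13 ± 0.29), Rtp4 (1.47 ± 0.23) and Ifit2 (1.01 ± 0.16) were the members with the smallest p. Isg15, Ifit1 and Ifi44 of the same list, chosen after their values were seen, had log2 fold changes of -0.07, -0.47 and -0.62. The difference between the lists was not tested.

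T cell and cytotoxic genes were higher as well. Of 24 tested T cell markers 21 were higher and 1 was lower (median 1.32). Ctla4, a checkpoint receptor of activated and regulatory T cells, was 7.01, 3.97, 3.95, 4.16 and 3.77 CPM in the AD controls and 16.9, 20.2, 16.2, 23.9 and 19.3 CPM in the ACD controls. AD control 1 was the highest AD library, as it also was for Foxp3 and Zap70, and still below ACD (log2 fold change 2.08 ± 0.19 (SE), adjusted p = 7.41e-06). Il2ra (1.39 ± 0.17), Zap70 (1.24 ± 0.14), Foxp3 (1.71 ± 0.34) and Cd8b1 (2.24 ± 0.33) were higher, the last 2 chosen after their values were seen, and Cd3e, a subunit of the T cell receptor complex, did not pass (log2 fold change 0.41 ± 0.23 (SE), adjusted p = 0.142). Tigit was the one marker called lower (log2 fold change -0.78 ± 0.10 (SE), adjusted p = 7.55e-05), but the tables imply gene lengths of 21744 and 7552 bases for it, and on the FPKM scale it was higher in ACD (0.53 on log2(FPKM + 1)), so its direction depends on the unit. Of 16 tested cytotoxic and NK cell genes 15 were higher (median 2.12). Gzmb, the granzyme of killer cells, was 14.7, 11.4, 12.8, 9.20 and 2.90 CPM in the AD controls and 77.7, 99.1, 104, 109 and 99.4 CPM in the ACD controls. AD control 6 was the lowest library and the groups were far apart (log2 fold change 3.26 ± 0.32 (SE), adjusted p = 1.31e-05). Ccl5 (3.05 ± 0.33), the receptor Klrk1 (2.21 ± 0.27) and perforin, Prf1 (1.67 ± 0.15), moved the same way. Of 6 tested genes of gamma-delta and epidermal T cells 2 were higher and 1 lower, with Cd7 at 1.15 ± 0.14 and Sox13 at -0.57 ± 0.12. Gzmf, chosen after its values were seen, stood at 2.72, 3.55, 4.74, 3.23 and 4.34 CPM in ACD and at 0 in 3 of 5 AD libraries (log2 fold change 4.30 ± 0.73 (SE), adjusted p = 0.000431; without AD control 4 it was 6.46).

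All 13 members of the MHC class II list were higher (median 1.68). H2-Aa was 614, 292, 298, 333 and 172 CPM in the AD controls and 1124, 1309, 1512, 1290.2 and 1149 CPM in the ACD controls (log2 fold change 1.90 ± 0.27 (SE), adjusted p = 0.000146). The costimulatory ligands Cd86 and Cd80 differed by 1.40 ± 0.12 and 1.93 ± 0.17. Among dendritic and Langerhans cell genes 6 of 17 (35.3%) were higher and 2 (11.8%) lower, beside 30.5% and 30.9% of all tested genes. The list median was -0.06, and its sign changed under 10 of 22 alternatives. Mgl2, Clec10a and Clec9a, chosen after their values were seen, had log2 fold changes of -1.45, -1.06 and -0.36. Ccr7, the receptor that guides migrating dendritic cells, was 3.29 to 6.87 CPM in AD and 18.1 to 21.9 CPM in ACD (log2 fold change 2.06 ± 0.19 (SE), adjusted p = 7.89e-06), and the growth factor receptor Flt3 and the cross-presenting cell marker Xcr1 differed by 1.71 ± 0.19 and 1.92 ± 0.23. Of 5 B cell markers tested of 12 listed, 4 were higher at levels near or below 3 CPM, and Cd79a and Ms4a1 had too few counts to be tested.

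Macrophage and monocyte genes did not move as 1 block. Of 26 tested members 16 were higher and 6 lower (median 0.85). The activating Fc receptors Fcgr1 and Fcgr4 and the lipopolysaccharide co-receptor Cd14 showed the smallest p. Fcgr1 was 21.9, 23.8, 21.7, 14.1 and 12.1 CPM in the AD controls and 162, 157, 156, 174 and 178 CPM in the ACD controls. The groups were tight and far apart (log2 fold change 3.14 ± 0.18 (SE), adjusted p = 9.8e-07). Fcgr4 differed by 3.51 ± 0.24, Cd14 by 3.67 ± 0.26 and the scavenger receptor Msr1 by 1.60 ± 0.15. Ccr2, the receptor of recruited monocytes, was higher at 9.47 to 81.5 CPM in AD and 122 to 229 CPM in ACD (log2 fold change 2.22 ± 0.48 (SE), adjusted p = 0.00196), and Ly6c2 differed by 2.86 ± 0.37. Genes known from resident macrophages were mixed. Cd163 (-0.66 ± 0.16), Timd4 (-1.39 ± 0.32) and Lyve1 (-1.05 ± 0.12), which lymphatic endothelium also expresses, were lower, while C1qb (1.06 ± 0.15), C1qc (0.51 ± 0.15) and Adgre1 (0.68 ± 0.19) were higher. Mrc1 (-0.02 ± 0.11), Folr2 (0.52 ± 0.24) and C1qa (0.21 ± 0.15) did not pass. Ccr2, Ly6c2, Cd163, Timd4, the C1q genes, Adgre1, Mrc1 and Folr2 were chosen after their values were seen.

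Genes of type 2 inflammation went both ways. Of 20 tested cytokines, alarmins and receptors 9 (45%) were higher and 6 (30%) lower, and the median was 0.23. The share that was lower is near the 30.9% of all tested genes, and the share that was higher stands beside 30.5%. The cytokines Il4 and Tslp were lower. Il4, Tslp, Chil4, Il13 and Il13ra2 were named after their values were seen. Il4 was 3.99, 1.35, 3.51, 1.68 and 3.09 CPM in the AD controls and 0.308, 0.874, 0.279, 0.260 and 0.362 CPM in the ACD controls. ACD control 3 was above the other ACD libraries and below every AD library (log2 fold change -2.69 ± 0.42 (SE), adjusted p = 0.000227). Tslp was 71.4, 161, 43.8, 151 and 39.8 CPM in the AD controls and 3.33, 9.87, 13.5, 19.0 and 3.82 CPM in the ACD controls. AD controls 2 and 5 were the highest, and the groups did not overlap (log2 fold change -3.24 ± 0.57 (SE), adjusted p = 0.000535). Chil4, a chitinase-like protein induced by type 2 cytokines in mice, was 251, 91.6, 37.9, 15.8 and 4.16 CPM in the AD controls and 1.44, 0.463, 0.669, 0.572 and 0 CPM in the ACD controls. It spanned a wide range within AD, with AD control 1 highest and AD control 6 lowest (log2 fold change -6.98 ± 1.19 (SE), adjusted p = 0.000454). Il13 did not pass, at 2.02, 1.94, 0.828, 0.396 and 0.0967 CPM in the AD controls and 1.33, 1.13, 1.11, 0.937 and 0.620 CPM in the ACD controls (log2 fold change -0.05 ± 0.57 (SE), adjusted p = 0.947). The IL-4 receptor chain Il4ra was 211 to 338 CPM in AD and 597 to 721 CPM in ACD (log2 fold change 1.35 ± 0.12 (SE), adjusted p = 7.4e-06). The TSLP receptor subunits Crlf2 and Il7r and the decoy receptor Il13ra2 were also higher, by 1.35 ± 0.13, 1.09 ± 0.10 and 2.23 ± 0.37. Il1rl1, the IL-33 receptor, was called higher (1.55 ± 0.23), with implied lengths that differ between the tables.

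Of 10 tested type 2 chemokines 3 (30%) were higher and 2 (20%) lower, beside 30.5% and 30.9% of all tested genes. These counts do not set the list apart from other genes. Ccl17, a ligand of the T helper 2 cell receptor CCR4, was 8.41, 2.84, 4.29, 5.39 and 2.37 CPM in the AD controls and 0.923, 0.874, 1.23, 0.416 and 0.775 CPM in the ACD controls. ACD was lower without overlap (log2 fold change -2.46 ± 0.38 (SE), adjusted p = 0.00024). Ccl7 and Ccl8, monocyte attractants, were higher (1.81 ± 0.36 and 1.02 ± 0.33), the second with overlapping groups. Ccr4 was called lower (log2 fold change -0.81 ± 0.27 (SE), adjusted p = 0.0231), and lost the call when AD control 1 or ACD control 1, 3 or 6 was left out (adjusted p = 0.0548 to 0.0563). Of 15 tested genes of mast cells, basophils and eosinophils 9 were lower and 1 higher (median -0.63). Mrgprb2, a receptor specific to mast cells of connective tissue, was 6.82, 4.56, 6.58, 6.14 and 7.49 CPM in the AD controls and 0.820, 0.566, 0.836, 0.989 and 0.672 CPM in the ACD controls. No ACD library reached 1 CPM (log2 fold change -3.01 ± 0.20 (SE), adjusted p = 1.51e-06). The tryptase Tpsb2 was 163, 119, 219.5, 189 and 242 CPM in the AD controls and 56.5, 47.8, 43.4, 49.4 and 44.1 CPM in the ACD controls (log2 fold change -1.95 ± 0.17 (SE), adjusted p = 6.66e-06), and Cpa3, chosen after its values were seen, differed by -0.87 ± 0.15. Hdc, the histamine-forming enzyme, which neutrophils also express, was higher at 70.7 to 119 CPM in AD and 311 to 576 CPM in ACD (log2 fold change 2.07 ± 0.19 (SE), adjusted p = 7.89e-06). Epx, a marker of eosinophils, had too few counts to be tested.

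Of the 10 genes of the vitamin D list, 7 were lower and 3 higher in ACD. The list mixes genes named as receptor targets with the receptor Vdr, its partner Rxra and the enzyme Cyp27b1. Its counts therefore do not measure receptor activity, which was not tested. Cyp24a1 was among the 10 largest falls, and the one of them with the highest level. Cyp24a1 (chr2:170482957-170497145, GRCm38.p6) was 1892, 3233, 1402, 2521 and 2272 CPM in the AD controls and 3.13, 3.91, 7.58, 5.67 and 0.982 CPM in the ACD controls. ACD control 6 was lowest, and no ACD library came near the lowest AD library (log2 fold change -9.06 ± 0.52 (SE), adjusted p = 9.8e-07). S100g, the calcium-binding protein calbindin-D9k, was 1.01, 4.24, 0.779, 3.32 and 2.08 CPM in the AD controls and 0.0513, 0.103, 0.0557, 0.0520 and 0 CPM in the ACD controls (log2 fold change -5.29 ± 0.69 (SE), adjusted p = 7.22e-05). The calcium channel Trpv6 was 3.38 to 4.21 CPM in AD and 1.14 to 2.28 CPM in ACD (log2 fold change -1.13 ± 0.18 (SE), adjusted p = 0.000301). The kallikrein Klk13 and the receptor partner Rxra differed by -1.33 ± 0.16 and -0.80 ± 0.10, and the receptor Vdr by -0.42 ± 0.14 with overlapping groups. The call for Vdr was lost when ACD control 3, 5 or 6 was left out. Cd14 (3.67 ± 0.26), Camp (3.76 ± 0.55) and Cyp27b1, the enzyme that activates vitamin D (1.65 ± 0.28), were higher. Cd14 and Camp are also expressed by monocytes and neutrophils, and the part of these cells in their values was not tested. S100g, Trpv6, Vdr, Camp and Cyp27b1 were named after their values were seen.

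**Figure D2:**
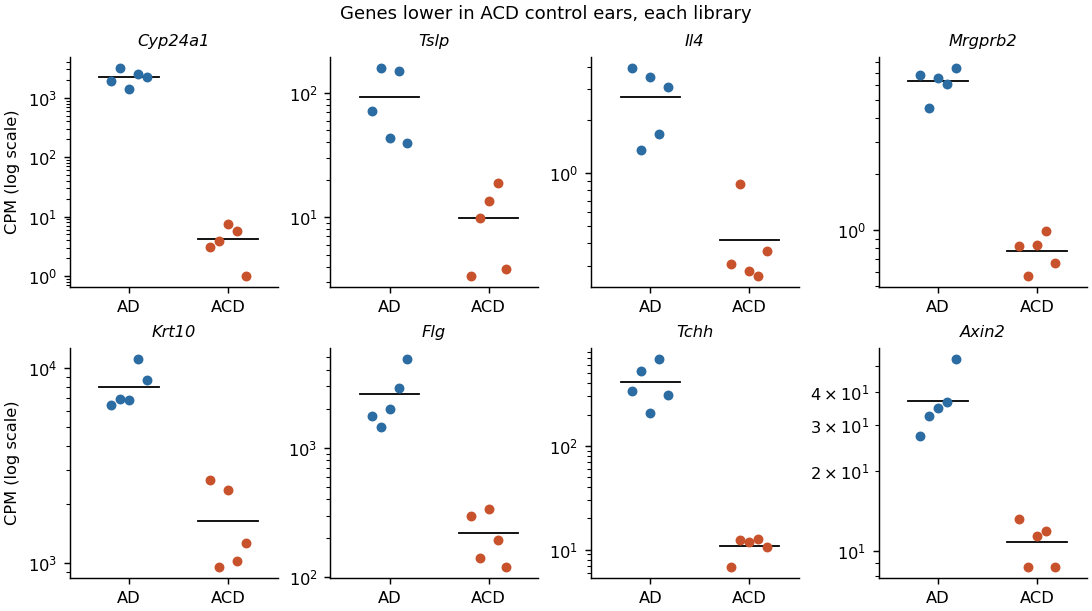
Counts per M counts (CPM, log axis) of 8 genes lower in ACD, in each control library; each point is a library, the line is the mean of 5, AD in blue and ACD in orange. In all 8 panels the ACD points lie below the AD points, from Axin2 (log2 fold change -1.78 ± 0.19) to Cyp24a1 (-9.06 ± 0.52).

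Of 16 tested keratins 8 were lower in ACD, beside 30.9% of all genes, and none was higher. Those lower were Krt1, Krt2, Krt10, Krt77, Krt78 and Krt80 of the upper epidermis, Krt8 of simple epithelium and Krt15, a keratin of basal and follicle cells. Krt10, a keratin of the spinous layer, was 6423, 6963, 6886, 11162 and 8723 CPM in the AD controls and 2663, 951, 2369, 1026 and 1266 CPM in the ACD controls. Its lowest AD library was above the highest ACD library (log2 fold change -2.28 ± 0.31 (SE), adjusted p = 0.000108). Krt1 was 8133, 3993, 7172, 7701 and 7336 CPM in the AD controls and 2312, 1487, 2422, 1524 and 1404 CPM in the ACD controls (log2 fold change -1.91 ± 0.23 (SE), adjusted p = 3.96e-05). Krt2 (-1.94 ± 0.35), Krt77 (-3.45 ± 0.43), Krt78 (-3.25 ± 0.43) and Krt80 (-1.58 ± 0.13) were also lower. Krt8 (-2.17 ± 0.34) and Krt15 (-0.74 ± 0.27, adjusted p = 0.0309, groups overlapping) were the other 2, named after their values were seen. Krt5 (0.16 ± 0.13), Krt14 (-0.13 ± 0.12), Krt6a (-0.35 ± 0.16) and Krt17 (0.26 ± 0.15), keratins of basal and of wounded epidermis, did not pass, with adjusted p of 0.321, 0.351, 0.0807 and 0.143, and were chosen after their values were seen. Without ACD control 3, Krt6a was called lower (-0.52, adjusted p = 0.00337).

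The cornified envelope and its lipids followed the upper keratins. Of 32 tested cornified envelope genes 22 were lower and none higher (median -1.34), and of 16 barrier lipid enzymes 15 were lower (median -0.89). Flg, filaggrin, was 1765, 1444, 1996, 2878 and 4886 CPM in the AD controls and 298, 141, 338, 196 and 119 CPM in the ACD controls. AD controls 5 and 6 were the highest libraries and the groups were well apart (log2 fold change -3.57 ± 0.41 (SE), adjusted p = 3.35e-05). Hrnr, hornerin, was 2057, 2454, 2506, 5543 and 4926 CPM in the AD controls and 464, 233, 438, 262 and 300.0 CPM in the ACD controls (log2 fold change -3.37 ± 0.34 (SE), adjusted p = 1.37e-05). Tchh, trichohyalin, a protein of hair follicle and cornified cells, was 335, 525, 208, 694 and 309.5 CPM in the AD controls and 6.72, 12.3, 11.9, 12.7 and 10.7 CPM in the ACD controls (log2 fold change -5.25 ± 0.35 (SE), adjusted p = 1.69e-06). Cdsn, corneodesmosin, and the desmosomal cadherin Dsc1 differed by -2.55 ± 0.17 and -1.81 ± 0.14. Lor and Flg2, chosen after their values were seen, differed by -2.97 ± 0.41 and -3.83 ± 0.52. In contrast, the 6 Lce3 genes of the list, late cornified envelope genes known from repairing epidermis, did not pass. Among the lipid enzymes Aloxe3, an epidermal lipoxygenase, was 65.6 to 164 CPM in AD and 18.7 to 24.9 CPM in ACD (log2 fold change -2.22 ± 0.22 (SE), adjusted p = 1.47e-05), and Pnpla1 (-1.42 ± 0.17), Sdr9c7 (-1.39 ± 0.17) and Smpd1 (-0.87 ± 0.11) act in the making of barrier ceramides. Of 17 skin kallikreins and inhibitors, which control shedding of the horny layer, 12 were lower and 1 higher, with Klk8 at -1.17 ± 0.11, Klk9 at -1.38 ± 0.17 and the inhibitor Spink5 at -1.45 ± 0.14.

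Of 13 tested melanocyte genes 12 were lower and 1, the receptor Mc1r, was higher at 1.26 to 2.45 CPM in AD and 5.41 to 13.7 CPM in ACD (log2 fold change 2.31 ± 0.29 (SE), adjusted p = 5.86e-05). The pigment enzymes Dct and Tyrp1 were 20.2 to 26.2 CPM in AD and 5.64 to 9.64 CPM in ACD and 23.3 to 33.4 CPM in AD and 5.94 to 11.6 CPM in ACD in that order, and differed by -1.74 ± 0.15 and -1.77 ± 0.17. Kit, which mast cells share with melanocytes, was 34.2, 32.3, 32.8, 35.0 and 40.9 CPM in the AD controls and 16.5, 16.3, 15.4, 14.8 and 14.2 CPM in the ACD controls (log2 fold change -1.18 ± 0.08 (SE), adjusted p = 1.98e-06). Of 11 tested hair shaft genes 5 were lower and 6 did not pass, and 16 of 27 found had too few counts. Without AD controls 4 and 6, an alternative chosen after seeing the data, 9 of 12 were lower. The follicle factors Hoxc13 and Foxn1 were 8.65 to 35.0 CPM in AD and 0.310 to 1.28 CPM in ACD and 19.1 to 21.4 CPM in AD and 8.47 to 10.1 CPM in ACD in that order (-4.43 ± 0.44 and -1.09 ± 0.08). Krt36, a hair and nail keratin among the 10 largest falls, was 10.2, 102, 0.974, 119.6 and 3.00 CPM in the AD controls and 0.205, 0.0514, 0.111, 0.156 and 0.0517 CPM in the ACD controls. AD controls 2 and 5 held most of it, and AD control 4 was below 1 CPM (log2 fold change -8.60 ± 1.68 (SE), adjusted p = 0.0011; with limma voom and quality weights the adjusted p was 0.0533). Of 24 tested Wnt targets and feedback genes 15 (62.5%) were lower, beside 30.9% of all tested genes, and none was higher. The list mixes targets and inhibitors of the Wnt pathway with Gsk3a, Gsk3b and Ctnnb1, and Gsk3b is among the genes counted as lower. Its counts therefore do not measure pathway activity, which was not tested. The stem cell receptor Lgr6 was 36.1, 57.3, 43.4, 55.2 and 46.2 CPM in the AD controls and 12.6, 7.66, 14.2, 8.79 and 8.01 CPM in the ACD controls (log2 fold change -2.22 ± 0.20 (SE), adjusted p = 6.81e-06). Axin2, a feedback target of beta-catenin, was 27.1, 32.3, 34.7, 36.7 and 53.5 CPM in the AD controls and 13.1, 8.64, 11.4, 11.9 and 8.63 CPM in the ACD controls (log2 fold change -1.78 ± 0.19 (SE), adjusted p = 1.95e-05; chosen after its values were seen). Apcdd1 (-1.57 ± 0.13), Znrf3 (-1.33 ± 0.12) and Dkk3 (-1.05 ± 0.11) are inhibitors of the pathway. Gsk3b, the kinase that SB415286 inhibits, was 75.2 to 119 CPM in AD and 66.0 to 70.8 CPM in ACD (log2 fold change -0.52 ± 0.10 (SE), adjusted p = 0.00112), named for the drug of the study.

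**Figure D3:**
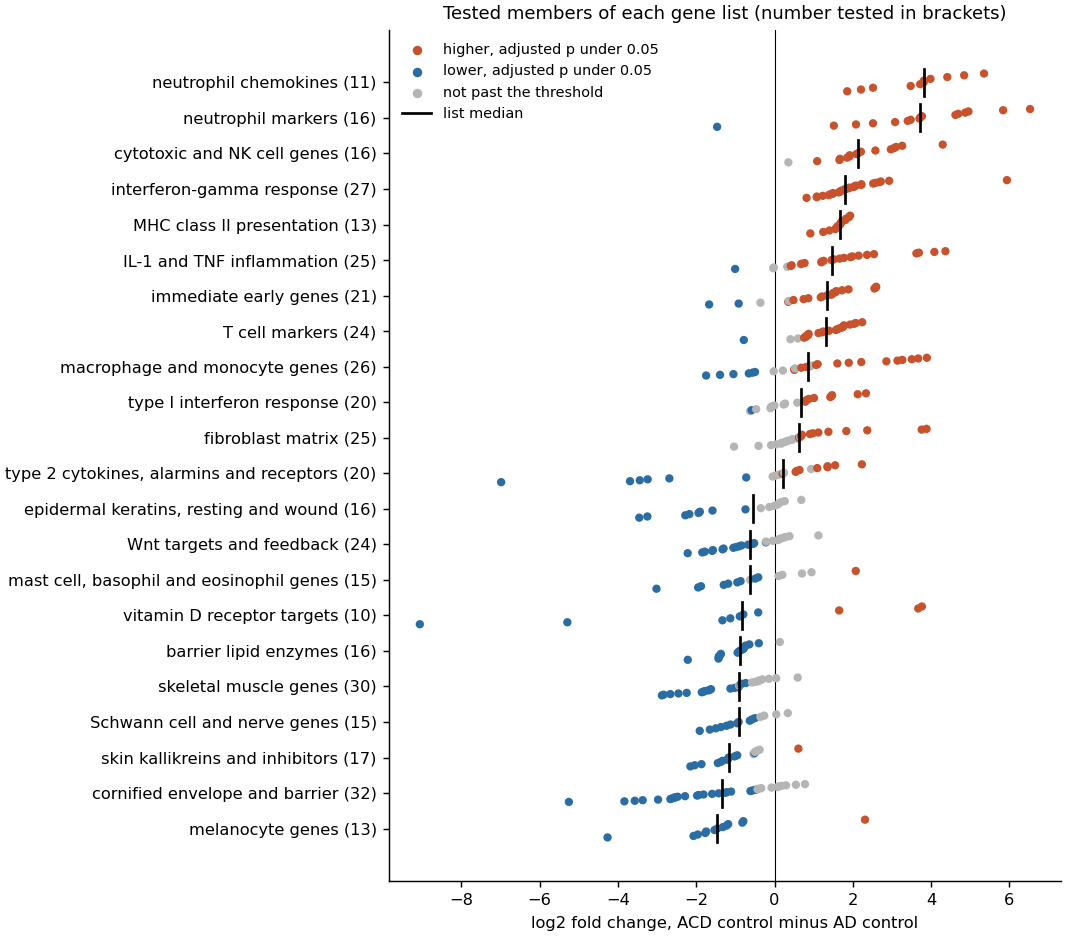
Log2 fold change (ACD control minus AD control) of every tested member of 22 gene lists, coloured by call, with the list median as a black line. Neutrophil, cytotoxic and interferon-gamma lists lie to the right and melanocyte, cornified envelope and kallikrein lists to the left, while type 2, macrophage and vitamin D lists hold members far to both sides.

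Some tissue compartments of the ear differed as well. Of 30 tested skeletal muscle genes 19 were lower, with a summed level of 2630 to 6220 CPM in AD and 883 to 1976 CPM in ACD. In 1 fit of all 20 libraries 11 of the 30 were lower. Atp2a1, the calcium pump of fast muscle, was 338, 424, 401, 425 and 1166 CPM in the AD controls and 112, 62.1, 43.9, 86.5 and 70.8 CPM in the ACD controls. AD control 6 was far above the rest (log2 fold change -2.88 ± 0.38 (SE), adjusted p = 8.04e-05). Myh4, Myh1 and Neb showed the same library at the top, and differed by -2.83 ± 0.44, -2.45 ± 0.42 and -1.86 ± 0.32. Schwann cell genes were lower in 11 of 15 cases, with Prx, periaxin of myelinating Schwann cells, lower (log2 fold change -1.13 ± 0.13 (SE), adjusted p = 2.5e-05). Adipocyte genes were lower in 9 of 17 cases, with Plin4 at -1.47 ± 0.26 and Cfd at -1.06 ± 0.19. Cartilage genes were lower in 7 of 22, a share near the 30.9% of all genes (12 without AD control 6 and 11 without ACD control 1 were lower), with Cytl1 at -2.07 ± 0.20 and Chad at -1.77 ± 0.27. Prg4, the lubricant lubricin, was the cartilage-list member that was higher (1.85 ± 0.25). Sebaceous lipid genes were lower in 7 of 16 cases and higher in 2, with Scd3 at 7.83 to 33.3 CPM in AD and 2.93 to 4.29 CPM in ACD (log2 fold change -2.33 ± 0.34 (SE), adjusted p = 0.000148) and the lipid droplet protein Plin2, found in many cell types, higher (1.31 ± 0.12). Of 20 endothelial genes 8 (40%) were lower and 3 (15%) higher, beside 30.9% and 30.5% of all tested genes, and the median was -0.15. Vwf (-1.54 ± 0.15) and Tek (-0.94 ± 0.08) were among those lower, while Pecam1 and Cdh5 differed by only 0.07 and 0.12. Differences in how much muscle, cartilage and skin a piece of ear held were not tested.

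Fibroblast matrix genes were higher in 12 of 25 cases and lower in none. Tnc, tenascin C of wounded tissue, was 440.0, 649, 324, 187 and 532 CPM in the AD controls and 2512, 2124, 1866, 2052 and 2457 CPM in the ACD controls (log2 fold change 2.37 ± 0.28 (SE), adjusted p = 4.18e-05), and Timp1 and Thbs1 differed by 3.76 ± 0.37 and 1.83 ± 0.14. Col3a1, chosen after its values were seen, had overlapping groups (log2 fold change 1.12 ± 0.37 (SE), adjusted p = 0.0222) and lost the call without AD control 5 (adjusted p = 0.0537). Of 17 metalloproteinases and inhibitors 8 were higher and 3 lower. Mmp3, stromelysin, was 82.3, 141, 127, 62.2 and 156 CPM in the AD controls and 1179.8, 1418, 1933, 1567 and 2558 CPM in the ACD controls (log2 fold change 3.93 ± 0.30 (SE), adjusted p = 3.35e-06). Mmp25, an enzyme of neutrophils, differed by 2.97 ± 0.27, and Mmp11 by -2.51 ± 0.27. Of 11 hyaluronan genes 7 were higher and 1 lower, with Tnfaip6 at 2.36 ± 0.18. In the complement list 8 of 19 (42.1%) were higher and 6 (31.6%) lower, beside 30.5% and 30.9% of all tested genes. The list median was 0.21, with Cfb at 2.17 ± 0.17 and C7 at -2.81 ± 0.25.

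Of 18 tested itch mediators and receptors 6 (33.3%) were higher and 8 (44.4%) lower, beside 30.5% and 30.9% of all tested genes. Nppb, the natriuretic peptide that sensory neurons use in itch, was 1.20, 0.406, 0.682, 0.0990 and 0.435 CPM in the AD controls and 10.1, 13.8, 13.9, 13.1 and 13.2 CPM in the ACD controls. All ACD libraries were above 10 CPM and all AD libraries below 1.3 CPM (log2 fold change 4.49 ± 0.38 (SE), adjusted p = 5.23e-06). Tacr1, the substance P receptor, was 13.5 to 16.7 CPM in AD and 3.68 to 5.78 CPM in ACD (log2 fold change -1.61 ± 0.13 (SE), adjusted p = 3.97e-06), and the channel Trpv3 of keratinocytes 22.2 to 36.7 CPM in AD and 8.63 to 12.9 CPM in ACD (log2 fold change -1.51 ± 0.16 (SE), adjusted p = 2.17e-05). Tac1, which encodes substance P, was chosen after its values were seen and stood at 0 to 0.0974 CPM in AD and 0.520 to 1.14 CPM in ACD.

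Of 23 tested targets of the antioxidant factor NRF2, 15 were higher and 3 lower (median 0.81). Fth1, the ferritin heavy chain, was 1730.3, 1817, 2142, 1739 and 2146 CPM in the AD controls and 5623, 6052, 6205, 6993 and 8022 CPM in the ACD controls, the largest rise in mean CPM (log2 fold change 1.78 ± 0.12 (SE), adjusted p = 1.69e-06). Ftl1 (1.46 ± 0.10), Hmox1 (1.69 ± 0.15) and Osgin1 (1.60 ± 0.16) were also higher. The other genes with the largest rises in CPM were Chil1, a chitinase-like protein (302 to 564 CPM in AD and 2212 to 4194 CPM in ACD), the glycolytic genes Gapdh (1.20 ± 0.09) and Pkm (1.70 ± 0.11) and B2m, the MHC class I light chain (1.31 ± 0.18). Immediate early genes were higher in 17 of 21 cases and lower in 2. Ier3 was 66.3, 76.6, 68.9, 52.0 and 69.1 CPM in the AD controls and 279.5, 369.8, 436, 436 and 429.6 CPM in the ACD controls (log2 fold change 2.55 ± 0.14 (SE), adjusted p = 9.15e-07). Atf3 (2.60 ± 0.16) and Junb (1.21 ± 0.09) were higher and Egr3 lower (-1.67 ± 0.14).

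Cell cycle genes were higher in 17 of 30 cases, and 3 of them by 1 or more on the log2 scale (median 0.61), with Top2a at 39.8 to 114 CPM in AD and 151 to 183 CPM in ACD (log2 fold change 0.97 ± 0.22 (SE), adjusted p = 0.00254). Ribosomal protein genes were higher in 55 of 78 cases and lower in 4, with a median of 0.37. In the same contrast of SB415286-injected ears 16 of the 78 were higher and 7 lower. These genes have many near-identical copies in the genome and the tables divided shared reads differently, so single members such as Rpl23 (-1.77 ± 0.13) and Rpl38 (1.05 ± 0.11) are uncertain. Respiratory chain subunits were higher in 33 of 41 cases and lower in 1 (median 0.46), with Cox6b1 at 1.03 ± 0.11. Of 9 tested histone genes, also close copies, 6 were higher and 2 lower, with H2ac18 at 15.0 to 19.4 CPM in AD and 34.1 to 49.6 CPM in ACD (log2 fold change 1.20 ± 0.11 (SE), adjusted p = 8.8e-06).

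Genes induced by glucocorticoids separated the AD controls among themselves. Zbtb16, chosen after its values were seen, was 19.2, 21.6, 75.8, 94.2 and 166 CPM in the AD controls and 18.3, 11.5, 11.8, 9.63 and 10.2 CPM in the ACD controls. AD controls 1 and 2 were near the highest ACD library, and AD controls 4, 5 and 6 were well above it (log2 fold change -2.62 ± 0.55 (SE), adjusted p = 0.00174). Tsc22d3 was 181, 176, 383, 484 and 637 CPM in the AD controls and 91.8, 101, 101, 145 and 144 CPM in the ACD controls, and AD controls 4, 5 and 6 were again the highest (log2 fold change -1.67 ± 0.35 (SE), adjusted p = 0.00155; chosen after its values were seen). Fkbp5 was 92.9, 109, 204, 257 and 327 CPM in the AD controls and 126, 87.4, 91.1, 90.2 and 105 CPM in the ACD controls, and there AD controls 1 and 2 lay within the ACD range (log2 fold change -0.99 ± 0.31 (SE), adjusted p = 0.0166; chosen after its values were seen). Without AD controls 4 and 6, an alternative chosen after seeing the data, the call for Fkbp5 was lost (-0.62, adjusted p = 0.1). The metallothioneins Mt1 and Mt2 went the other way (1.41 ± 0.17 and 1.80 ± 0.16), and over the list 7 of 16 were higher and 6 lower, with a median of -0.10 whose sign changed under 4 of 22 alternatives. Of 18 clock genes 9 were lower and 2 higher, with Hlf at -1.69 ± 0.25 and Nfil3 at 1.64 ± 0.16. The hour of the day at which ears were taken is not given in the labels used here, and its part was not tested.

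Genes of hepatocytes were frequent among the largest falls of genes of at least 1 CPM on average, and AD control 4 held most of their reads. That average includes AD control 4, which carried some of these genes past the 1 CPM rule. Apoc3 was 12.3 CPM in AD control 4, 0.528 to 1.98 CPM in the other AD controls and at most 0.0514 CPM in ACD. How frequent these genes are among the largest falls therefore depends on that library. Serpina1c, an alpha-1 antitrypsin gene with close copies, was 2.50, 2.62, 154, 4.60 and 6.38 CPM in the AD controls and 0 in all 5 ACD controls. With a floor of 3 counts in a library, AD was at least 203-fold higher, and at least 24.1-fold higher without AD control 4. Mat1a, the methionine adenosyltransferase of liver, was 0.865, 1.26, 23.7, 1.48 and 2.27 CPM in AD and 0 in ACD, which makes AD at least 35.4-fold higher, and at least 8.80-fold higher without AD control 4. Serpina1a, Cps1, Cyp3a11, Apoc3 and Mug1 showed the same library at the top, and it exceeded the median of the other AD controls by 14.5 to 42.5 times over these 7 genes. Alb, albumin, chosen after its values were seen, was 20.0, 24.9, 924, 35.0 and 58.8 CPM in the AD controls and 1.28, 1.34, 1.28, 1.25 and 1.70 CPM in the ACD controls. The other AD controls were lower than AD control 4 and still above ACD (log2 fold change -7.27 ± 1.36 (SE), adjusted p = 0.00081). Leaving out AD control 4 moved Alb to -4.66 (adjusted p = 5.75e-06), Cyp3a11 from -7.96 to -5.26 and Mug1 from -7.53 to -4.59, and the calls stayed. Cyp24a1 was lower in AD control 4 than in any other AD control.

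**Figure D4:**
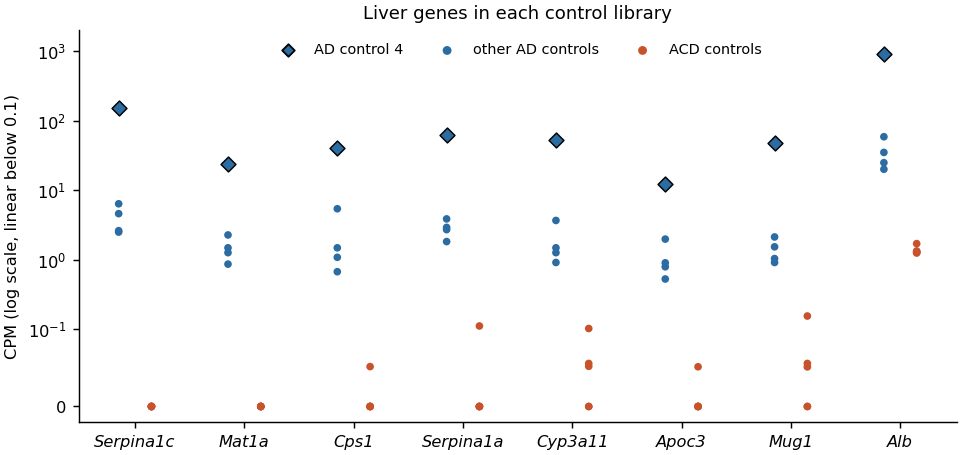
Counts per M counts (CPM, log axis, linear below 0.1) of 8 liver genes in each control library; AD control 4 is drawn as a diamond, the other AD controls as blue points and the ACD controls as orange points. For each gene AD control 4 lies highest, the other AD controls lie between, and the ACD controls lie lowest, with Alb at 924 CPM in AD control 4 and at 1.25 to 1.70 CPM in ACD.

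The same contrast of models was also fitted in the 10 ears from SB415286-injected mice, which share no library with the controls but share the tables and the models, and differ in dose. There 9629 of 15165 genes (63.5%) were called, 4702 (31.0%) higher and 4927 (32.5%) lower in ACD. Of the genes higher in ACD controls 3783 were also higher there, which is 81.1% of the control calls and 80.5% of the injected calls, and 8 were lower. Of the genes lower in ACD controls 3807 were also lower there, which is 80.7% and 77.3%, and 7 were higher. Cyp24a1 differed by -8.54 ± 1.25, Ly6g by 7.23 ± 0.55, Nos2 by 6.29 ± 0.82, Cxcl1 by 6.07 ± 0.52, Flg by -3.84 ± 0.75 and Krt10 by -2.17 ± 0.44 in injected ears. Not every list carried over in its counts. Cartilage genes were higher in 7 and lower in 4 of 22 cases in injected ears (median 0.26, against -0.69 in controls). Skeletal muscle genes were lower in 9 of 30 cases and higher in 1 (median -0.38, against -0.92 in controls with 19 lower). Ribosomal protein genes were higher in 16 of 78 cases and lower in 7 (median 0.17, against 0.37 in controls with 55 higher). Among 24 genes of the Wnt list 6 were higher and 14 lower, against 0 and 15 in controls. Dendritic and Langerhans cell genes were higher in 9 of 17 cases (median 0.88, against -0.06 in controls). The neutrophil chemokine list had 11 of 11 higher in both, and the interferon-gamma list 27 of 27. The difference between the contrasts was not tested for lists. For single genes it was tested in 1 fit of all 20 libraries and was called for 8 of 15700 genes. Of the 235 genes chosen for naming it was called for Sftpb alone, the gene of surfactant protein B, which was lower in ACD controls (-1.64 ± 0.28) and higher in injected ACD ears (1.55 ± 0.29). Ccl17 (-0.45 ± 0.40) and Il13 (2.47 ± 0.58) had values in injected ears that stood apart from those in controls (-2.46 ± 0.38 and -0.05 ± 0.57), and for neither was the difference called.

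**Figure D5:**
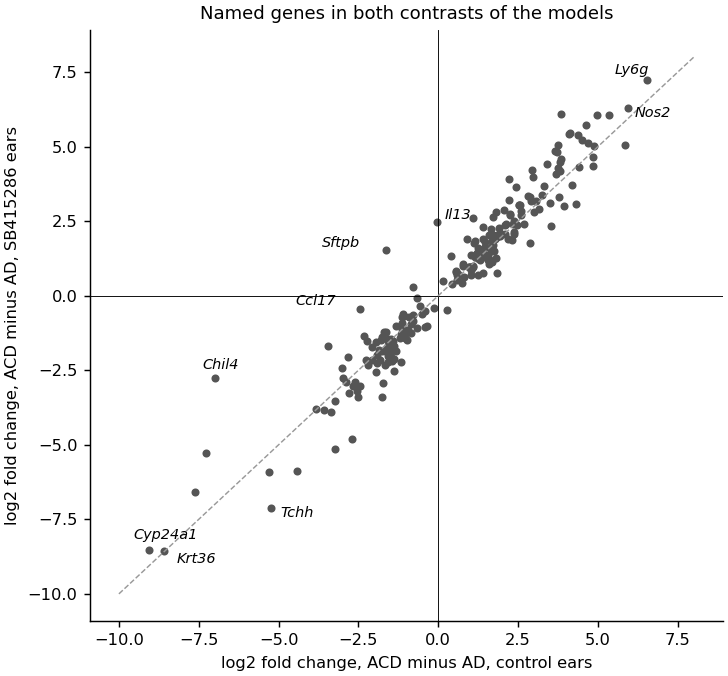
Log2 fold change (ACD minus AD) of the 227 named genes tested in both contrasts, in control ears (x axis) and in SB415286-injected ears (y axis); the dashed line marks equal values. Most points lie near the line, and Sftpb lies in the upper left, with -1.64 in controls and 1.55 in injected ears.

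Some genes could not be compared because only 1 table lists them, 399 in the AD table and 666 in the ACD table. Of these, 28 in AD and 2 in ACD had a mean of at least 10 expected counts over the control libraries. AD control 4 carried some of the 28 past that mean. Ces3a, Fabp1 and Hnf4a had 559, 531 and 178 expected counts in AD control 4. In the other AD controls they had at most 16.7, 26 and 10. Others of the 28, such as Entpd4, were not highest in that library. Il22 and Il31 are listed in the ACD table alone and were not analysed here.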

How the data were processed

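RNA from mouse ear tissue was sequenced (MGISEQ-2000, per the series' design text), and the deposited data are 2 tables, 1 for each model, with 10 libraries each. Per the submitters' processing notes, the tools used were HISAT, HISAT2, Bowtie2 2.2.5 and RSEM 1.2.8, with the builds GRCm38.p6 and GRCh38.p13 named; which build each step used is not given in the sources used here. The authors deposited RSEM expected counts, FPKM, TPM and averages; the 20 TPM and 18 average columns were not used. The deposited FPKM values served for 2 alternatives and for the gene length implied by count, total and FPKM.

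Genes were joined on gene identifier, expected counts were rounded, low genes were removed with filterByExpr, libraries were scaled together by TMM, and the controls were compared with the quasi-likelihood test of edgeR 4.0.16 (R 4.3.3) with Benjamini-Hochberg adjustment over all tested genes. SE is the log2 fold change divided by the root of F. DESeq2 1.42.0, limma 3.58.1, other scalings and filters, and omission of each library were the alternatives. On simulated counts, 165 of 200 genes given a log2 change of 1 were recovered (82.5%), and 14 of 14971 unchanged genes were called. The changed genes were few, had at least 1 CPM on average, and rose and fell in equal number. In the data 61.4% of genes were called, so the simulation does not show how test and scaling behave there. No control library repeated another: the count dispersion between libraries of a group was at least 11.4 times that of sampling.

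Genes were named by rule: the 10 largest rises and falls among called genes of at least 1 CPM on average, the 5 largest of each in CPM, and up to 4 called members of each list with the smallest p. Results for some of these genes are not reported here. Others are said to be chosen after their values were seen. The members and lists were chosen with earlier results of these data known. A value at 0 in a library was given a floor of 3 counts for fold limits. Promoter windows came from a RefSeq table on GRCm38.p6. Shared replicate numbers did not pair the libraries.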

Additional observations from a re-analysis of the deposited data

Results flagged for a closer look

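In 51 of 470 sets of 5 libraries, 1 library lay apart from the other 4 by Dixon's criterion; about 1 set in 20 does so by chance. Values are CPM. AD control 1 was highest of its group for Ctla4 (7.01), Flt3 (4.56), Foxp3 (9.08) and Zap70 (4.08). AD control 2 was highest of its group for Acvr1c (3.30), Cxcl5 (53.9), Foxn1 (21.4) and H3c1 (0.361) and lowest of its group for Il7r (17.5) and Krt1 (3993). AD control 4 was highest of its group for Alb (924), Apoc3 (12.3), Cps1 (40.8), Cxcl2 (123), Cyp3a11 (52.7), Gzmf (0.779), Mat1a (23.7), Mug1 (48.5), Serpina1a (62.4) and Serpina1c (154). AD control 5 was lowest of its group for Junb (334). AD control 6 was highest of its group for Atp2a1 (1166), Myh1 (1367), Myh4 (277), Neb (219) and Thbs1 (326) and lowest of its group for Il2ra (5.51) and Il33 (102). ACD control 1 was highest of its group for Ccr7 (21.9) and Zbtb16 (18.3) and lowest of its group for Bhlhe40 (209), Clock (49.8), Nppb (10.1) and Pkm (2829). ACD control 3 was highest of its group for Apoc3 (0.0514), Il4 (0.874), Klk13 (204), Klk9 (188) and Krt17 (1516) and lowest of its group for Ccl7 (93.9). ACD control 4 was highest of its group for Mmp11 (8.19), Rpl23 (141), Rpl38 (578), Serpina1a (0.111) and Xcl1 (2.84) and lowest of its group for Timd4 (1.11) and Zbp1 (93.2). ACD control 5 was highest of its group for Flt3 (14.3). ACD control 6 was highest of its group for Alb (1.70) and Cps1 (0.0517) and lowest of its group for Il13ra2 (21.8).

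The ACD values listed for Alb, Apoc3, Cps1 and Serpina1a, and AD values for Gzmf and H3c1, are low counts.

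For Sftpb the difference between the models was not the same in control and injected ears: the log2 fold change in controls minus that in injected ears was -3.20 (adjusted p = 0.00439, edgeR quasi-likelihood test over 20 libraries). In the controls Sftpb was 1.39, 2.53, 1.61, 2.18 and 3.14 CPM in AD and 0.769, 0.463, 0.892, 0.833 and 0.517 CPM in ACD. All 5 AD controls were above all 5 ACD controls, at low levels.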

How the results depend on the processing

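The numbers of genes higher and lower in ACD stayed within 1.5 times of 4662 and 4716 under every scaling, tool, filter and unit tried, and when each library was left out (4300 to 4779 higher and 4348 to 4759 lower). Library size alone as scaling gave 3828 higher and 5513 lower and moved the median of all genes from -0.02 to -0.11. Limma on log2(FPKM + 1) gave 3598 and 4687. Fewer genes were tested, and so fewer called, in 2 alternatives chosen after seeing the data: 1797 higher and 1854 lower of 5554 genes with matching implied length, and 366 and 393 of 1362 genes with whole counts in both tables.

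Of 5230 values for 235 named genes under 24 alternatives, 5175 kept direction and call, 40 lost and 7 gained the call, and 8 changed sign. Sign changes concerned Tigit (-0.78 against 0.53 and 0.68 on log2(FPKM + 1) and log2(FPKM + 0.1), where the implied lengths differ between the tables) and Il13 (-0.05, never called, against 0.077 with limma voom, 0.58 with the replicate block, 0.19 among genes with whole counts, and -0.34 to 0.31 when a library was left out); the cause for Il13 was not tested. The calls for Ccr4, Xcl1, Spib, Col3a1, Il33 and Vdr were lost when some library was left out.

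With the replicate number as a block over the numbers both groups share, 3702 genes were higher and 3641 lower, and 31 of 78 ribosomal protein genes were higher against 55. Libraries with the same number did not deviate together (correlations of -0.00447, -0.0181, -0.174 and 0.0637 for numbers 1, 4, 5 and 6), so the numbers do not pair them. At 18.8 to 20.6 M counts per library, genes under the filter could not be compared, and intervals cover the spread between libraries only.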
